A study of Mus musculus with 267 samples.

Results

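The binding of RNA polymerase II (Pol II), the enzyme that transcribes protein-coding genes, was compared between untreated macrophages of NOD/ShiLtJ (NOD) mice and the same kind of cells given interleukin-4 (IL-4), all of them grown from bone marrow (BMDMs). The values came from 4 of the 267 chromatin immunoprecipitation sequencing (ChIP-seq) samples of a study that asked how genetic differences between 5 inbred mouse strains shape the macrophage response to IL-4. They were the 4 Pol II libraries of the NOD table, 2 from basal macrophages and 2 after 24 h with 20 ng/mL mouse IL-4. All 68932 regions of that table were used, each of them 1000 bp wide and centred on a peak of open chromatin found by ATAC-seq in basal or IL-4-treated NOD macrophages. The regions comprised 11459 promoter regions, 53520 distal regions (29302 intronic and 24218 intergenic) and 3953 in other annotations, mostly exons, untranslated regions and transcript ends.

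Per the study's methods, the mice were healthy females of 8 to 12 weeks, and their bone marrow was differentiated in culture with macrophage colony-stimulating factor. By their labels both groups were of the NOD strain and differed in the 24 h of IL-4, and no transgene or deletion is given for either. The labels number the libraries 1 and 2 within each group but do not say whether the numbers stand for separate animals. The p-values therefore set the difference between groups against the spread between these libraries, which may not be that between animals. ChIP-seq of a whole culture cannot tell fewer cells with bound polymerase from less polymerase per cell.

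Pol II enters a gene at its promoter, often pauses just after the start and then elongates along the gene body, so that a tag inside a gene may come from either step. It is also found at active enhancers, where short unstable RNAs are made. IL-4 acts through its receptor and JAK kinases on the transcription factor STAT6, and in macrophages it sets off the alternative activation program, which is known for lectin receptors, arginine metabolism, chitinase-like proteins and restraint of inflammatory genes.

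The deposited values are normalized tags, that is, reads counted in a region and scaled to 10000000 reads of the library. The basal libraries held 15412856 and 14605132 reads and the 24 h libraries 17688237 and 14819897, so that 8 normalized tags stood for 11.7 to 14.2 reads. Of all reads, 34.2% and 29.6% lay in the regions in the basal libraries and 32.4% and 29.9% at 24 h, a difference of -0.72 percentage points (24 h minus basal) that an exact permutation test did not separate from 0 (two-sided p = 1, smallest possible 0.333). No library was a copy of another: chi-square per degree of freedom of the read counts was 6.99 for the 24 h pair and 7.86 for the basal pair. Between groups it was 5.97 for the replicate 1 libraries and 6.51 for the replicate 2 libraries, and 9.89 and 11.5 for libraries of different number. By this measure, same-numbered libraries of the 2 groups were more alike than the libraries of a group. The Pearson correlation of log2 tags, over regions with a mean over 8, gave that order for replicate 1 only. It was 0.9044 for the replicate 1 libraries, above both pairs within a group. For the replicate 2 libraries it was 0.8826, below both pairs within a group, the lower of which was the basal pair (0.8867). Genes that mark macrophages bore Pol II at all 11 of their promoter regions, and their summed tags were 5288 and 5789 in the basal libraries and 4334 and 4304 at 24 h. The markers of T cells, mast cells and erythroid cells had no region within 1000 bp of a gene start (0 of 4, 0 of 4 and 0 of 3). The B cell, granulocyte, dendritic cell and fibroblast lists kept 2 of 4, 1 of 4, 1 of 3 and 1 of 3 genes, with summed tags of 16.9 to 23.7, 28.8 to 66.2, 2.05 to 7.91 and 0 to 1.70 over the 4 libraries.

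A region was counted as past the fold rule when its group means of normalized tags plus 1 differed at least 2.5-fold and the higher mean was at least 8. The thresholds are those of the study's methods, and the added tag understates the change of low regions. Pol II lay higher at 24 h in 85 promoter regions (0.742%) and lower in 84 (0.733%), and higher in 1467 distal regions (2.74%) and lower in 747 (1.4%). In most of them both 24 h libraries lay on the same side of both basal libraries. That held for 79 higher promoter regions (0.689%), 74 lower promoter regions (0.646%), 1408 higher distal regions (2.63%) and 683 lower distal regions (1.28%), and over all annotations for 1552 higher (2.25%) and 786 lower regions (1.14%). Distal regions held most of the regions past the rule in both directions, but they also made up 53520 of the 68932 regions. Their Pol II was lower, with a median of 10.3 tags in basal macrophages against 90.4 in promoter regions. Fewer reads therefore stood behind a 2.5-fold difference at distal regions. Neighbouring regions can share reads, since 13411 of the 68932 (19.5%) overlap another, as did 237 of the 1552 higher (15.3%) and 108 of the 786 lower regions (13.7%).

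Single libraries set the size of some counts. Without 24 h replicate 1 the lower regions went from 84 to 353 among promoters and from 747 to 2205 among distal regions, and the higher ones to 113 and 1816. Without basal replicate 1 the higher regions numbered 207 among promoters and 2328 among distal regions, and without basal replicate 2 there were 137 higher promoter and 1425 lower distal regions.

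The difference between the groups was then tested against the spread between libraries over all 68932 regions. By limma on log2(normalized tags + 1), 0 regions were called in either direction (2 libraries a group, smallest Benjamini-Hochberg adjusted p 0.0620, threshold 0.05). At an unadjusted p under 0.05, limma had 3181 higher (4.61%) and 2090 lower regions (3.03%). Of the reads recovered from the tags, edgeR's quasi-likelihood test with TMM scaling called 61 regions higher (0.0885%) and 2 lower (0.0029%), and DESeq2 called 332 higher (0.482%) and 67 lower (0.0972%). With library totals as its only scaling, edgeR called 38 higher and 0 lower, with 3119 and 2103 at an unadjusted p under 0.05. All 63 regions called by edgeR with TMM were past the fold rule without overlap of the libraries, and DESeq2 called each of them too. They comprised 7 of 11459 promoter, 50 of 53520 distal and 6 of 3953 other regions, nearest to 41 genes. In the following text a region is said to rise or fall only where edgeR with TMM called it. None of these tests took the replicate numbers into account, and a fit that did is given at the end.

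**Figure D1:**
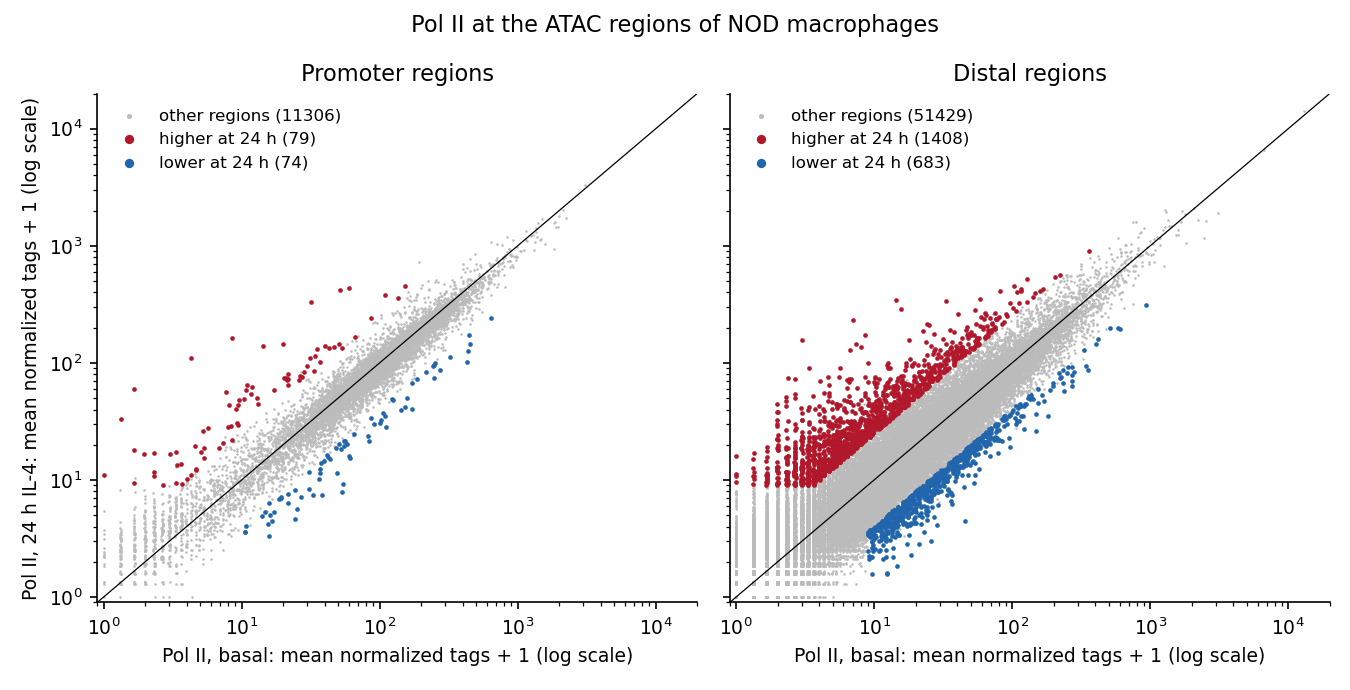
Mean normalized Pol II tags of each region in basal macrophages (x axis) and after 24 h of IL-4 (y axis), both as tags + 1 on log scales, for promoter regions (left) and distal regions (right). Red and blue points are regions past the fold rule without overlap of the libraries (higher and lower at 24 h), grey points are the other regions and the line marks equal values, along which most points lie, with 1408 red and 683 blue among 53520 distal regions.

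The sequences of the regions with the strongest evidence are given first, so that the values can be read against the DNA they describe. Shown are the 300 central bases of the 2 distal regions with the smallest limma p among the higher ones, those of the distal region with the smallest p among the lower ones, and the 250 bases before the start of Msx3, the promoter with the smallest p. They are reference bases (RefSeq, GRCm38.p6, the assembly that mm10 coordinates follow), not NOD bases. Capitals mark matches, on either strand, to a short set of motifs: TTC and GAA separated by 4 bases, the spacing preferred by STAT6, TTCNNNGAA for other STAT factors, GTGGGNG for the EGR family, GAGGAAG for PU.1, TGANTCA for AP-1 and TTGCNNAA for C/EBP. A match is a description of letters and not a binding site.
Tmem26 intron, chr10:68725513-68725812, plus strand: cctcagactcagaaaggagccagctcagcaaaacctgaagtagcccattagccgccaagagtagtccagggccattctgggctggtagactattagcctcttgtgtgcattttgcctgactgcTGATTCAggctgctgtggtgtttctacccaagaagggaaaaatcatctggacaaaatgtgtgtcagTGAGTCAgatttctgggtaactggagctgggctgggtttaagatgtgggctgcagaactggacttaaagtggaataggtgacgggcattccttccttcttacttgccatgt
Rnase2a intergenic, chr14:51253606-51253905, plus strand: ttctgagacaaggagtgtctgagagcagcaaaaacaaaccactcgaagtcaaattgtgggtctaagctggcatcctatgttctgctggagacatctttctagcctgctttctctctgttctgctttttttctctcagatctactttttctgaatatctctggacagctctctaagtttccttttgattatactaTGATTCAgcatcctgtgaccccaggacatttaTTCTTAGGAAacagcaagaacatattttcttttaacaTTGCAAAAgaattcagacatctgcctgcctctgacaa
Tlr2 intron, chr3:83839463-83839762, plus strand: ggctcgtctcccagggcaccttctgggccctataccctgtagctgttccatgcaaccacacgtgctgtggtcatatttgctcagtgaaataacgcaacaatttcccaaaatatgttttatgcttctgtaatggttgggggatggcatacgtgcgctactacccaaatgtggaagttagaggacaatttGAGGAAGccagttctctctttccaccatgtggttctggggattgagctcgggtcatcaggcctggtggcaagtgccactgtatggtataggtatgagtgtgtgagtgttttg
Msx3 promoter, chr7:140049089-140049338, minus strand: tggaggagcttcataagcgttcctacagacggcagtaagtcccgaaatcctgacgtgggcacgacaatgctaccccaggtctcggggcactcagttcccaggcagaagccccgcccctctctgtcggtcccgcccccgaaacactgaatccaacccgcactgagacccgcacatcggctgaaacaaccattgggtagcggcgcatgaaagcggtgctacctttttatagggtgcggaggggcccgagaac

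The Tmem26 intron window held 2 AP-1 matches, at bases 124 to 130 and 190 to 196 counted from the first printed base. The Rnase2a window held 1 match to TTC and GAA separated by 4 bases (227 to 236), 1 AP-1 match (195 to 201) and 1 C/EBP match (264 to 271). The Tlr2 window held 1 PU.1 match (189 to 195), and none of the listed motifs matched in the printed Msx3 bases. Their share among all regions is given with the motif counts further on.

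Regions were named only where they were past the fold rule and the libraries of the 2 groups did not overlap. Among the promoters with higher Pol II, named by limma p with 1 region per gene, the leading ones belonged to a transcription factor, a membrane protein, an amino acid transporter and a lectin. At the promoter of Msx3, a homeobox transcription factor (chr7:140048749-140049749), the basal libraries held 3.89 and 2.74 normalized tags and the 24 h libraries 125 and 93.1. The groups lay far apart, and Pol II rose there (log2 fold 4.67 ± 0.41 SE, edgeR adjusted p 0.00949, limma adjusted p 0.0620). The region is listed as an open-chromatin peak of basal macrophages only. That is a peak call, and the ATAC-seq signal of the 2 conditions was not compared. H3K27ac, an acetylation of histone H3 found at active promoters and enhancers, went from 1.66 and 0.00 to 70.9 and 40.0 tags in the same region.

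Tmem26 encodes a transmembrane protein. Its upstream promoter region (chr10:68722684-68723684) went from 0.65 and 0.68 tags to 63.3 and 55.3, and a second promoter region that overlaps it (chr10:68723273-68724273) from 10.4 and 4.79 to 163 and 159. Both rose by edgeR (adjusted p 0.00949 for each). The first had 1 read in each basal library, giving a ratio of reads of 89.6 with a 95% exact interval of 24.5 to 745 that covers counting error only.

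Slc7a2 encodes a transporter of cationic amino acids such as arginine, the substrate of arginase. Its promoter (chr8:40861846-40862846) held 39.6 and 21.9 tags in basal macrophages and 388 and 277 at 24 h, the most Pol II of the 8 named promoters with higher tags after that of 0610040F04Rik. Pol II rose there (log2 fold 3.43 ± 0.37 SE, edgeR adjusted p 0.00949).

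Mgl2 encodes a galactose-type C-type lectin of alternatively activated macrophages. Its promoter (chr11:70129620-70130620) went from 12.98 and 13.7 tags to 180 and 96.5 and rose by edgeR (log2 fold 3.21 ± 0.39 SE, adjusted p 0.0248). A region at the start of the long noncoding RNA 0610040F04Rik, 1020 bp inside the start of Bhlhe40 (chr6:108661149-108662149), went from 64.2 and 37.0 tags to 327 and 505 and rose too (adjusted p 0.0248 by edgeR). Bhlhe40 encodes a basic helix-loop-helix repressor, and ChIP tags carry no strand, so that polymerase on the 2 genes cannot be told apart. At an internal start of Mcf2l, a guanine nucleotide exchange factor (chr8:12948900-12949900), Pol II rose from 0.00 and 0.68 to 29.4 and 35.1 tags (edgeR adjusted p 0.0319). The basal libraries held 1 read in all there, for a ratio of 96.0 (95% exact interval 16.9 to 3829).

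The promoter of Cish, a member of the SOCS family that dampens cytokine receptors (chr9:107296113-107297113), had 11.03 and 8.90 tags in basal macrophages. In IL-4-treated macrophages it had 72.9 and 55.3, with an edgeR adjusted p of 0.0622. A promoter region of the predicted gene Gm6116 (chr5:74948245-74949245) had 0.65 and 0.68 tags against 18.1 and 16.2 (edgeR adjusted p 0.0829), a ratio of reads of 25.9 from 2 basal reads (95% exact interval 6.83 to 219). DESeq2 called all 8 of these named promoters.

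**Figure D2:**
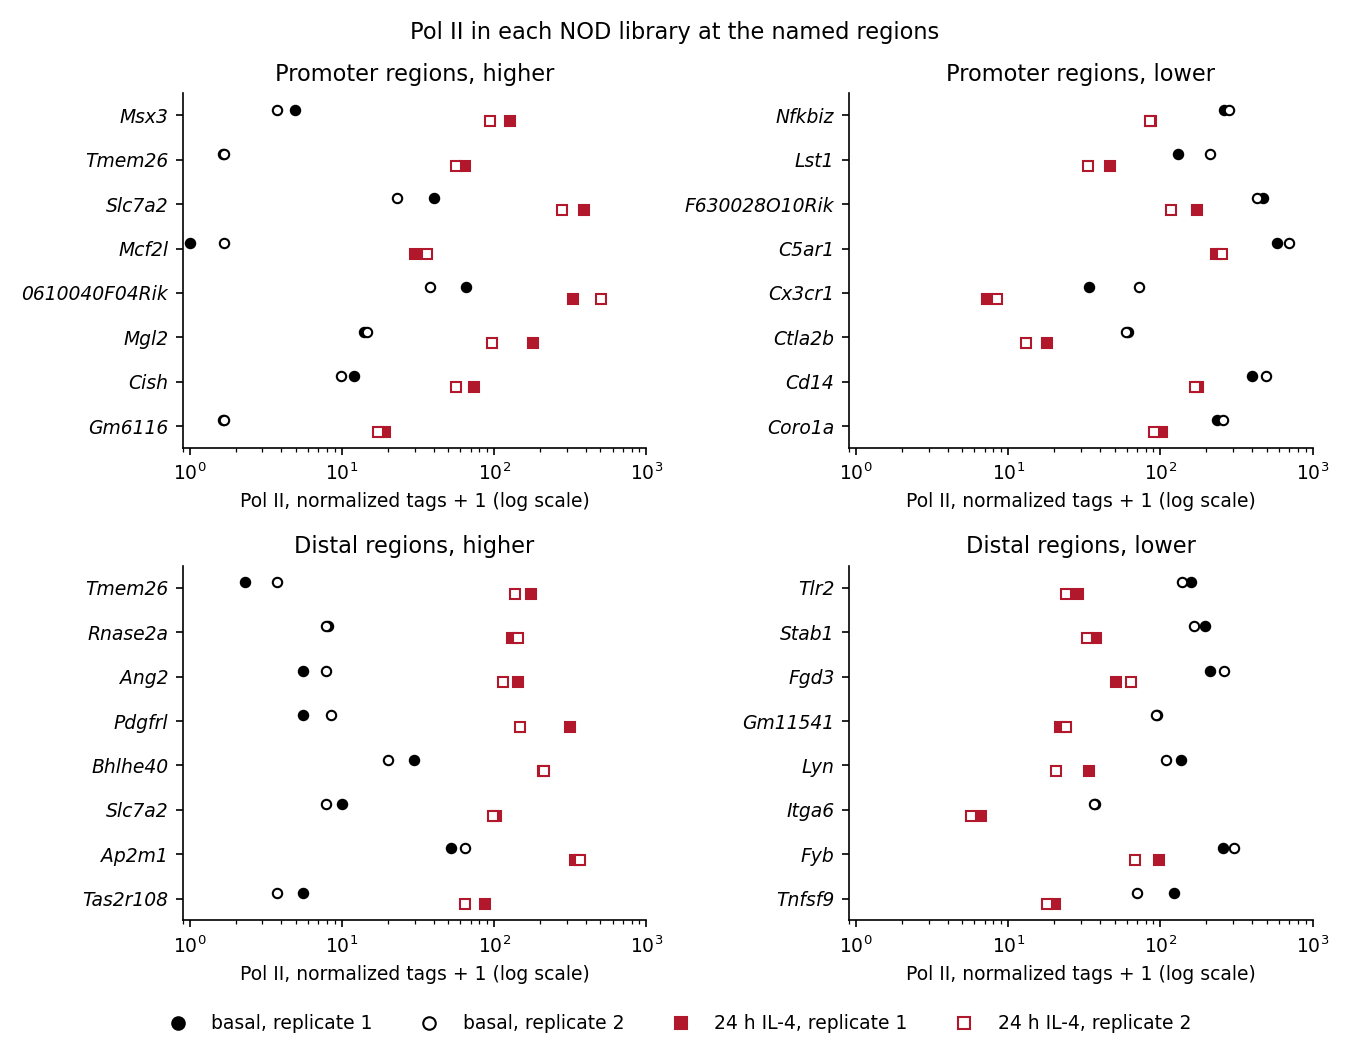
Normalized Pol II tags + 1 (x axis, log scale) of each library at the 32 named regions, 8 in each of 4 sets (promoter and distal regions, higher and lower at 24 h). Black circles are the basal and red squares the 24 h libraries, filled for replicate 1 and open for replicate 2, and rows carry the annotated or nearest gene. The 2 groups lie apart in every named region because the naming rule required it, with the widest gap at the Tmem26 intron (1.30 and 2.74 against 175 and 136 tags).

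Promoters with lower Pol II after IL-4 were named in the same way. None of the 8 fell by edgeR (adjusted p 0.0944 to 0.161), while DESeq2 called 7 of them. Nfkbiz encodes an atypical inhibitor of NF-kB that acts in the nucleus. At a start inside the gene (chr16:55821697-55822697) its tags were 261 and 281 in basal macrophages and 85.9 and 85.0 at 24 h (limma log2 fold -1.65 ± 0.26 SE, adjusted p 0.203).

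C5ar1, the receptor for the complement fragment C5a (chr7:16258794-16259794), carried the most Pol II of the set, 583 and 703 tags in basal and 232 and 252 in IL-4-treated macrophages. Cd14, the coreceptor for bacterial lipopolysaccharide, had 399 and 492 tags against 176 and 168. Lst1, a leukocyte-specific transcript (chr17:35187919-35188919), had 129 and 210 tags against 45.8 and 32.4. Lack of overlap between the groups was a condition for naming these promoters, so it adds no evidence here.

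Cx3cr1 encodes the receptor for fractalkine. One of its promoter regions (chr9:120067822-120068822) had 33.1 and 71.9 tags in basal macrophages and 6.22 and 7.42 at 24 h, and the log2 fold of -2.68 ± 0.49 SE was the lowest of the 8 (edgeR adjusted p 0.128). The basal libraries differed from each other there by more than the 24 h libraries did. The remaining named promoters were those of the noncoding RNA F630028O10Rik (472 and 431 against 174 and 117 tags), of Ctla2b (60.3 and 58.9 against 16.96 and 12.2) and of an internal start of Coro1a, an actin-binding protein of leukocytes (233 and 258 against 101.2 and 90.4).

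Distal regions gave the highest fold among the 32 named regions. All 8 named regions with higher Pol II rose by edgeR (adjusted p 0.00949 to 0.0248), although none passed limma (adjusted p 0.0620 to 0.0925). In an intron of Tmem26, 2016 bp from the gene's start (chr10:68725162-68726162), Pol II was at 1.30 and 2.74 tags in basal macrophages and at 175 and 136 at 24 h (log2 fold 5.73 ± 0.43 SE). Its central bases are the first sequence above.

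An intergenic region 2357 bp from the start of Rnase2a, which encodes a ribonuclease of the eosinophil-associated family (chr14:51253255-51254255), rose from 7.14 and 6.85 to 131 and 143 tags (log2 fold 4.11 ± 0.34 SE). It is the region of the second sequence. A region 1056 bp before the start of Ang2, of the related angiogenin family (chr14:51199704-51200704), rose from 4.54 and 6.85 to 142 and 113 tags. In both regions the lowest 24 h library was more than 10 times the highest basal one.

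Near Slc7a2, a region in an intron 28026 bp from its start (chr8:40889922-40890922) rose from 9.08 and 6.85 to 101.2 and 97.8 tags. An intergenic region between Slc7a2 and Pdgfrl, 1537 bp before the start of Pdgfrl (chr8:40924175-40925175), rose from 4.54 and 7.53 to 314 and 148 tags. This last region was the only one of the 8 where H3K27ac was not past the fold rule used for it below, with 2.49 and 1.59 H3K27ac tags in basal and 5.06 and 7.32 in IL-4-treated macrophages.

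An intergenic region 7815 bp from the start of Bhlhe40 (chr6:108667944-108668944) rose from 28.6 and 19.2 to 208 and 211 tags. An intron of Ap2m1, a subunit of the clathrin adaptor AP-2 (chr16:20536985-20537985), rose from 51.3 and 63.0 to 339 and 367. A region 9253 bp from Tas2r108, a bitter taste receptor gene (chr6:40502282-40503282), rose from 4.54 and 2.74 to 86.5 and 63.4. The nearest gene start is given as a position only, and no test linked a distal region to a gene.

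Of the named distal regions with lower Pol II, 2 fell by edgeR (adjusted p 0.0294 each). The first lies in an intron of Tlr2, the receptor for bacterial lipoproteins, 2155 bp from its start (chr3:83839112-83840112), where tags went from 158 and 138 to 27.7 and 22.9 (log2 fold -2.50 ± 0.30 SE). Its central bases are the third sequence. The second lies in an intron of Stab1, a scavenger receptor (chr14:31164484-31165484), where tags went from 196 and 165 to 36.8 and 31.7 (log2 fold -2.36 ± 0.29 SE).

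The other 6 had edgeR adjusted p of 0.0840 to 0.0996 and were called by DESeq2. In each the 24 h libraries lay below the basal ones, as the naming rule required. An intron of Fgd3, an exchange factor for the GTPase Cdc42 (chr13:49307916-49308916), had 212 and 262 tags in basal and 49.8 and 62.8 in IL-4-treated macrophages. An intron of Lyn, a Src family kinase (chr4:3681241-3682241), had 136 and 108 tags against 32.8 and 19.6. A region 3493 bp from Tnfsf9, the ligand of the costimulatory receptor 4-1BB (chr17:57108318-57109318), had 122 and 69.2 tags against 19.2 and 16.9. Regions whose nearest gene start was that of Itga6 (36.3 and 35.6 against 5.65 and 4.72 tags), Fyb (257 and 305 against 97.2 and 66.8) and Gm11541 (94.1 and 92.4 against 20.9 and 22.9) made up the set.

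A few of the other regions called by edgeR are given as examples, chosen after their values were seen. Beyond the transcript end of Socs1, an inhibitor of JAK kinases (chr16:10782448-10783448), tags rose from 18.2 and 17.8 to 306 and 189, and in the next region downstream (chr16:10780834-10781834) from 10.4 and 19.2 to 421 and 150. At the transcript end of Cish (chr9:107302757-107303757) they rose from 0.65 and 0.00 to 53.1 and 30.4. An intergenic region 46840 bp before the start of the kinase gene Pim1 rose from 1.95 and 1.37 to 43.0 and 62.8. Another, 6557 bp before the start of the kinase gene Pim3, rose from 3.89 and 1.37 to 59.9 and 41.8. At the start of Flt1, a receptor of vascular endothelial growth factor (chr5:147725286-147726286), tags rose from 3.24 and 5.48 to 70.7 and 75.6. An intron of Atp6v0d2, a subunit of the proton pump of lysosomes (chr4:19918559-19919559), rose from 20.1 and 44.5 to 348 and 322.

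Histone acetylation was measured in separate libraries of NOD macrophages, 2 per group, and gave a readout that the choice of regions did not use. The labels do not say whether these libraries came from the same cultures as those of Pol II. Over the regions with at least 8 Pol II tags its median log2 fold was -0.32, so that values below are to be read against that shift. Past the same 2.5-fold rule, with at least 16 tags, H3K27ac lay higher in 102 of all promoter regions (0.89%) and lower in 161 (1.41%), and higher in 2030 distal regions (3.79%) and lower in 3230 (6.04%). Among the regions past the Pol II rule without overlap, 42 of 79 higher promoter regions and 791 of 1408 higher distal regions were past the H3K27ac rule in the same direction. Among the lower ones these were 40 of 74 promoter and 450 of 683 distal regions. The opposite direction occurred in 6 higher distal regions and in 0 of the other 3 sets.

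The median H3K27ac log2 fold was 1.79 in higher and -1.40 in lower promoter regions, against -0.29 over all promoter regions. In distal regions it was 1.61 and -1.51, against -0.17 over all of them. H3K27ac lay above its basal level in 78 of the 79 higher promoter regions and in 3 of the 74 lower ones, against 3144 of all 11459 promoter regions. In distal regions it did so in 1350 of 1408 higher and 22 of 683 lower ones, against 22691 of all 53520. With median-ratio scaling, which brings the H3K27ac median to 0.00, the medians were 2.07 and -1.07 for promoters and 1.92 and -1.18 for distal regions. The regions above their basal level then numbered 78 of 79 higher and 5 of 74 lower promoters, against 6087 of all 11459. In distal regions they numbered 1378 of 1408 higher and 46 of 683 lower ones, against 30204 of all 53520.

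**Figure D3:**
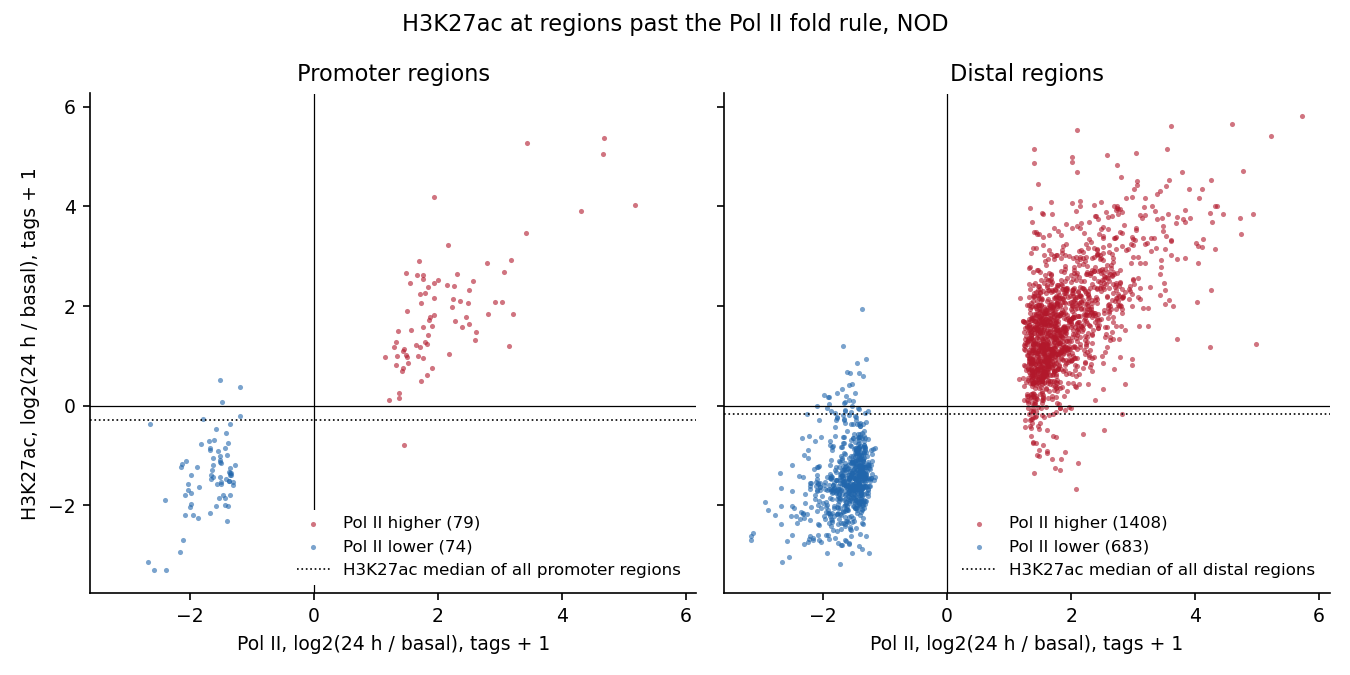
log2 fold (24 h over basal, tags + 1) of Pol II on the x axis and of H3K27ac on the y axis for promoter (left) and distal regions (right) past the Pol II fold rule without overlap. Red points are regions higher and blue points regions lower in Pol II, and the dotted line is the H3K27ac median of all promoter or distal regions. Above 0 lie 78 of 79 red and 3 of 74 blue promoter points, against 3144 of all 11459 promoter regions.

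At the 32 named regions, limma on H3K27ac gave an adjusted p under 0.05 over all regions for 6, all of them higher (Msx3, Mcf2l and Gm6116 promoters, and the Tmem26, Rnase2a and Ang2 distal regions), among 39 regions called higher in the table (0.0566%) and 0 called lower (4765 lower at an unadjusted p under 0.05). With median-ratio scaling 0 of the 6 passed. By the fold rule, H3K27ac moved with Pol II at 8 of 8 higher promoters, 6 of 8 lower promoters, 7 of 8 higher distal regions and 8 of 8 lower distal regions. At the Gm6116 promoter it went from 2.49 and 2.38 to 150 and 115 tags although Pol II reached only 18.1 and 16.2, and at the Ang2 region from 51.5 and 42.1 to 797 and 467. Without the condition on overlap, Pol II and H3K27ac were past their rules together in 887 higher (1.29%) and 556 lower regions (0.807%). Of these 61.5% were higher, against 78.3% (1181 higher, 328 lower) with median-ratio scaling and 49.4% (1482 higher, 1519 lower) at a fold threshold of 2. Without 24 h replicate 1 of Pol II the share was 47.0% (925 higher, 1042 lower).

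Both methylation marks had the same order of medians. H3K4me3, the mark of active promoters, had a median log2 fold of 0.81 in higher and -1.03 in lower promoter regions against -0.24 over all promoter regions. H3K4me2, found at promoters and enhancers alike, had -0.08 and -0.56 there against -0.34. In distal regions the medians of H3K4me2 were 0.26 and -0.59 against -0.28, and those of H3K4me3 0.75 and -0.33 against 0.12.

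Distal regions with higher and lower Pol II also differed in their basal state, which the rule itself in part sets. The median of the group means went from 5.66 to 24.5 tags in higher distal regions and from 25.02 to 7.39 in lower ones, while over all distal regions it was 10.3 and 10.2. At promoters it went from 8.63 to 53.5 and from 52.8 to 16.4, against 90.4 and 86.4 over all promoter regions, so that promoter regions past the rule in either direction held less Pol II in the median than promoters as a whole. Of the higher distal regions 32.7% were open-chromatin peaks of IL-4-treated macrophages only, against 12.5% of all distal regions and 4.68% of lower ones. Peaks of basal macrophages only made up 10.5% of the higher, 34.3% of the lower and 28.0% of all distal regions. Their distance to the nearest gene start was similar to the rest, with a median of 27522 bp for higher, 20906 bp for lower and 25683 bp for all distal regions.

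Regions past the fold rule in the same direction and up to 25 kb apart were joined into groups. A group begins and ends at such a region, so the share of its regions past the rule is in part set by the joining. Sums over a group count reads shared by overlapping regions more than once. Most of the groups were single regions, 588 of 890 for the higher and 396 of 516 for the lower ones. In all 337 of the 1552 higher regions (21.7%) were in 49 groups of 5 or more, and 134 of the 786 lower ones (17.05%) in 19 such groups. The longest run was the ribonuclease locus with Rnase2a, Rnase2b, Ear14 and Ang2 (chr14:51165788-51255355), where 17 of 20 regions were higher, 11 of them rising by edgeR. Summed over that locus, Pol II went from 50.6 and 58.9 tags to 1068 and 1128, and 16 of the 17 regions were past the H3K27ac rule as well.

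At Fam129b and Rpl12 (chr2:32870412-32928896) 17 of 19 regions were higher, from 949 and 1262 to 3048 and 4153 tags in sum, with 0 called by edgeR and 4 past the H3K27ac rule. In the run at Tmem26 (chr10:68705250-68759855) all 8 regions were higher, 45.4 and 23.3 tags in sum becoming 751 and 630, and 5 of them rose by edgeR. Of all 14 regions nearest to Tmem26, inside the run or not, 8 were higher. In the run at Fn1 and Mreg (chr1:71912198-71988806) 8 of 8 were higher, each with H3K27ac past the rule, from 22.7 and 54.8 to 205 and 221 tags. Fcgr2b, the inhibitory Fc receptor (chr1:170959458-170997443), had 10 of 11 regions higher, with 139 and 71.2 tags in sum against 630 and 240, the second 24 h library lying much closer to the basal ones than the first.

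Of the lower regions, 12 of 13 at Ly6e (chr15:74920360-74957664) were past the rule, with 775 and 1798 tags in sum in basal macrophages and 379 and 455 at 24 h. At Nlrp3, the sensor of the inflammasome (chr11:59524986-59562428), 11 of 12 were lower, from 1869 and 1157 to 580 and 248 tags. The formyl peptide receptor locus of Fpr1 and Fpr3 (chr17:17864872-17902437) had 11 of 12 lower, 463 and 155 against 89.9 and 34.4 tags, and each of the 11 was past the H3K27ac rule. At Pilra, Pilrb1 and Pilrb2, paired immunoglobulin-like receptors (chr5:137828401-137883608), 10 of 11 were lower, and at Cx3cr1 (chr9:120037097-120069408) 8 of 8. No region past the rule in the opposite direction lay inside any of these runs.

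Where a gene had both a promoter and a distal region past the rule, they went the same way. Of 72 genes nearest to a higher promoter region, 55 (76.4%) also had a higher distal region, against 5.40% of all 9938 genes with a promoter region, and 0 had a lower one. Of 68 genes nearest to a lower promoter region, 34 (50%) also had a lower distal region, against 3.03% of all such genes, and 0 had a higher one. Since tags on a gene body count as distal in an intron, part of these regions lie inside the transcribed gene. A distal region can also overlap a promoter region and share its reads, as at Tmem26 (chr10:68723273-68724273 and chr10:68723662-68724662). The shares over all genes were not matched for the number of distal regions near a gene.

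The gene lists placed Pol II by known function, with each gene standing for the region nearest to its start within 1000 bp. Over all 11418 protein-coding genes with such a region, 69 were higher (0.604%) and 67 lower (0.587%) past the fold rule without overlap, and the median log2 fold was -0.05. Of 14 genes of alternative activation with a region, 8 were higher and 0 lower, with a median log2 fold of 1.45 and values above 0 in all 14, against 4739 of the 11418 genes. The list was made with earlier results of these data known and holds genes the study used as examples, so its count is a description and not independent evidence. They were Slc7a2, Mgl2, Tmem26 and Flt1, which rose by edgeR, together with Mrc1, Ccl24, Mmp12 and Atp6v0d2.

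Mrc1, the mannose receptor, had 179 and 125 tags in basal macrophages and 672 and 229 at 24 h (edgeR adjusted p 0.281), so that 24 h replicate 1 lay much farther from the basal libraries than replicate 2. At the start of Atp6v0d2 they were 28.6 and 90.4 against 385 and 488 (edgeR adjusted p 0.119). Mmp12, the macrophage metalloelastase, had 5.19 and 10.96 tags against 28.3 and 51.3. The chemokine gene Ccl24 had 5.19 and 7.53 against 18.7 and 20.9, while those of Ccl17 (1.95 and 4.79 against 6.78 and 5.40) and Ccl22 (0.65 and 2.74 against 2.83 and 5.40) were low in both groups.

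Genes of this list were also read by the regions nearest to them, to be set against the 2.25% of all regions that were higher and the 1.14% that were lower. Of the 6 regions nearest to Arg1, arginase 1, 2 were higher, and in the one 4179 bp before its start (chr10:24931163-24932163) tags were 0.65 and 7.53 in basal and 23.7 and 22.3 in IL-4-treated macrophages (edgeR adjusted p 0.372). Near Pdcd1lg2, the ligand PD-L2, 6 of 10 regions were higher, and near Rnase2a 7 of 11. Near Fn1, fibronectin, 4 of 8 were higher, near Cdh1, E-cadherin, 2 of 5, and near Chil4 1 of 1. Near F13a1, coagulation factor XIII, 2 of 13 were lower, and near the scavenger receptor gene Cd36 0 of 10 and near Ch25h 0 of 12 were past the rule. Near Clec10a 0 of 4, near Alox15 0 of 3, near Retnla 0 of 1 and near Fbp1 0 of 1 were past it, and no region was nearest to Chil3 or Clec7a.

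Among the receptor and its signalling chain, 3 of 12 genes were higher and 0 lower, and the median log2 fold was -0.06. The 3 were inhibitors of cytokine signalling. Socs1 had 156 and 114 tags in basal and 473 and 240 in IL-4-treated macrophages (edgeR adjusted p 0.205), Socs2 had 4.54 and 9.59 against 39.0 and 45.9 (0.153 by edgeR), and Cish is given above. The IL-4 receptor gene Il4ra (132 and 120 against 101.2 and 84.3 tags) and Stat6 (364 and 324 against 259 and 270) were lower in both 24 h libraries but within the fold rule.

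Of 16 transcription factor genes of the IL-4 response, 2 were higher and 1 lower (median log2 fold -0.02), none called by edgeR. Irf4, a factor of the interferon regulatory family, had 14.3 and 24.6 tags against 68.4 and 78.3, and Batf3 had 16.2 and 25.3 against 53.1 and 106. Egr3 had 22.7 and 6.16 tags against 5.09 and 1.35. At Egr2 itself, 7.79 and 10.3 tags became 20.9 and 26.3 (edgeR adjusted p 0.441), below the 2.5-fold threshold, and in an intron-annotated region 3527 bp from its start 33.1 and 83.5 became 176 and 311 (0.237 by edgeR). Pparg had 72.0 and 132 tags against 162 and 160.

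Of 26 inflammatory genes, 0 were higher and 5 lower past the rule without overlap, 9 had a log2 fold above 0 (4739 of all 11418 genes did), and the median log2 fold was -0.41. The 5 were Cd14 (given above), Tlr2 (141 and 141 against 54.3 and 23.6 tags), Nlrp3 (315 and 190 against 122 and 62.1), Cxcl2 (110 and 52.0 against 36.8 and 8.77) and Cxcl10 (24.0 and 17.1 against 10.7 and 0.00), with edgeR adjusted p of 0.161 to 0.646. Replicate 1 lay above replicate 2 at 20 of the 26 regions in basal macrophages and at 23 at 24 h. The chemokine genes Ccl2 and Ccl7 had wide gaps of this kind, with 692 and 105 tags in basal and 1226 and 161 in IL-4-treated macrophages at Ccl2 and 353 and 33.6 against 1330 and 131 at Ccl7. At both genes each 24 h library lay above the basal library of the same number. The groups overlapped, so neither gene met the condition for being counted as higher, although the means at Ccl7 differed by more than 2.5-fold.

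Interferon-stimulated genes gave small differences in 1 direction. The log2 fold was above 0 at 0 of 20 genes, against 4739 of all 11418, with a median of -0.63, but only Mx1, an antiviral GTPase, was past the rule (63.6 and 152 against 27.1 and 41.8 tags, edgeR adjusted p 0.358). Irf7 had 171 and 184 tags against 92.2 and 78.3, and Oas2 168 and 182 against 92.7 and 68.2.

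Of 14 chemotactic, Fc and TREM family receptor genes, 2 were higher and 6 lower, and the median log2 fold was -0.75. The lower ones were C5ar1, given above, Cx3cr1 at the region nearest to its start (37.6 and 68.5 against 5.09 and 11.5 tags), Fpr2 (44.1 and 12.3 against 9.61 and 0.67 tags), Pilra (29.2 and 11.6 against 3.39 and 5.40), Pilrb1 (30.5 and 16.4 against 4.52 and 2.70) and Fcgr1, the high-affinity Fc receptor (74.0 and 239 against 41.8 and 56.7). The higher ones were Fcgr2b (44.1 and 16.4 against 160 and 60.0) and Trem1 (9.73 and 2.05 against 20.4 and 14.8). None of the 8 was called by edgeR.

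The remaining lists held few genes past the rule. In antigen presentation 1 of 10 was higher, Cd74, the invariant chain (11.7 and 39.0 against 53.1 and 99.9 tags), with a list median of 0.40. Of 20 lipid and cholesterol genes, 19 cell cycle genes and 11 housekeeping genes 0 were past the rule in either direction, with median log2 folds of -0.06, -0.14 and -0.19. Among lipid genes, Abcg1, a cholesterol exporter, had 90.8 and 97.2 tags against 222 and 213 at its start, below 2.5-fold, while in the run of regions at Abcg1 (chr17:31058423-31089385) 8 of 9 were higher past the rule, from 391 and 392 to 1228 and 1275 tags in sum, 4 of them past the H3K27ac rule. Of 11 macrophage markers, Fcgr1 alone was past the rule, and Lyz2 (1700 and 1976 against 1093 and 794 tags) was the largest part of the lower marker sum at 24 h given at the start.

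**Figure D4:**
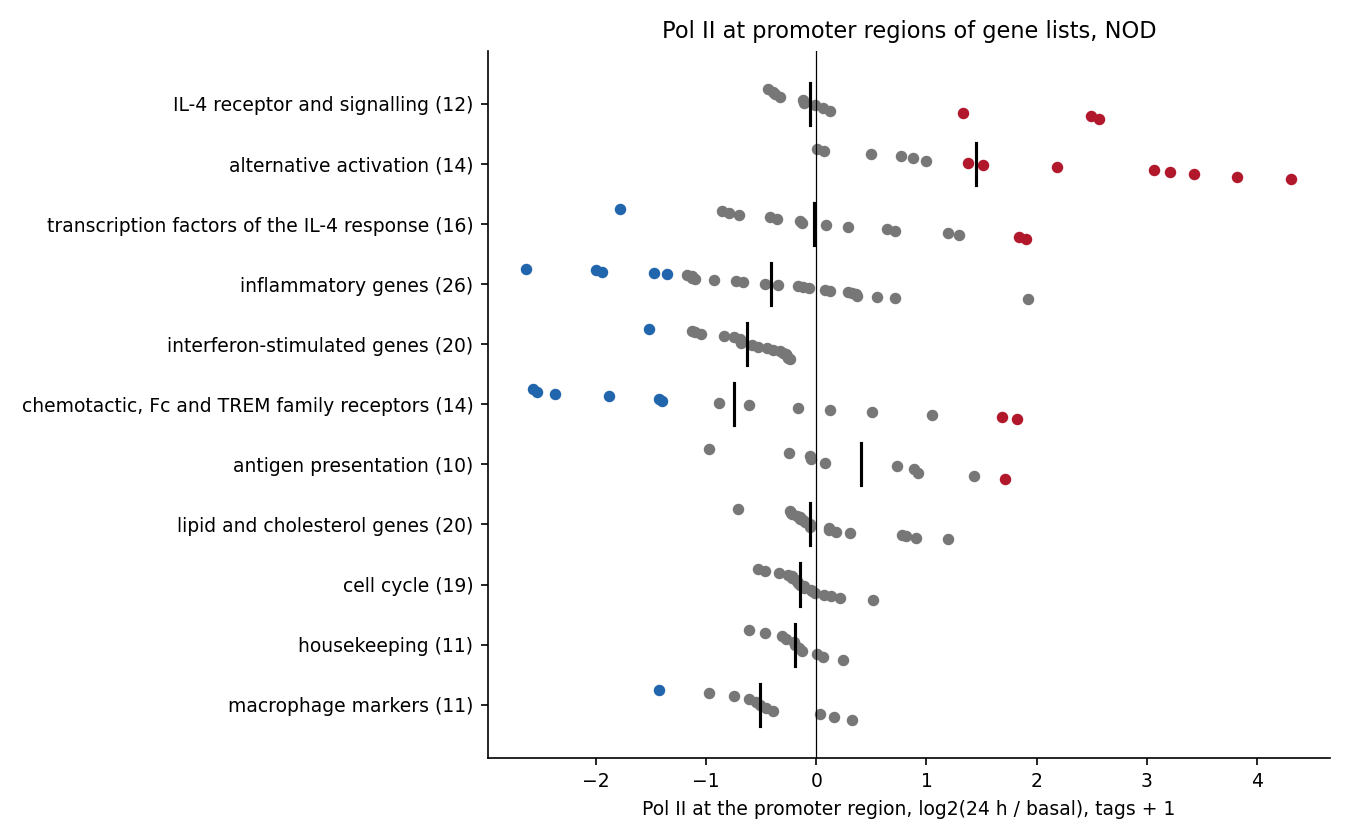
Shown for lists made with earlier results of these data known is the log2 fold of Pol II (24 h over basal, tags + 1) on the x axis for each gene of the main lists at the region nearest to its start, with the list median as a bar and genes past the fold rule without overlap in red (higher) or blue (lower). The median of alternative activation lies at 1.45, that of interferon-stimulated genes at -0.63 and that of chemotactic, Fc and TREM family receptors at -0.75, against -0.05 over all protein-coding genes.

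Genes that the study used as examples were a choice made with these cells in view, so their counts are not independent evidence. Of 11 such genes, 6 had a region at their start, of which 3 were higher (Slc7a2, Msx3 and Mmp12). Btbd11 had 6.49 and 6.85 tags against 6.78 and 5.40 and Ripk2 135 and 102 against 188 and 87.0, and neither differed beyond the spread of its libraries (edgeR adjusted p 0.996 and 0.960). Near Msx3 5 of 6 regions were higher, near Mtmr7 5 of 8 and near Egr2 2 of 10, while near Treml2 0 of 2 were.

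Peaks of 5 transcription factors in NOD macrophages, called by the authors on reproducible replicates in each condition, were set beside the Pol II regions, counting a peak whose centre lay in the region. STAT6 peaks of IL-4-treated macrophages were present in 56.8% of distal regions with higher Pol II, in 37.9% of those with lower Pol II and in 31.4% of all distal regions. Basal STAT6 peaks showed the opposite order, with 19.6%, 54.0% and 30.1%. A STAT6 peak at 24 h without one in basal macrophages marked 39.0% of higher, 3.51% of lower and 10.6% of all distal regions. A basal STAT6 peak that was absent at 24 h marked 1.78%, 19.6% and 9.37%. The 2 STAT6 lists were of nearly equal length, 20653 peaks in basal macrophages and 20619 at 24 h.

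EGR2 peaks at 24 h were present in 32.2% of higher, 7.47% of lower and 13.6% of all distal regions, and basal EGR2 peaks in 38.2%, 17.7% and 20.8%, from lists of 16604 peaks at 24 h and 25341 in basal macrophages. The PPARg list held 12529 peaks in basal macrophages and 40426 at 24 h, and its peaks at 24 h lay in 65.1% of higher, 47.6% of lower and 42.9% of all distal regions. PU.1, a factor that defines the macrophage lineage, had peaks at 24 h in 83.2%, 87.3% and 79.2%, and in basal macrophages in 58.2%, 85.5% and 72.3%. C/EBPb peaks at 24 h were in 54.8% of higher and 55.6% of lower distal regions, with 45.3% over all. A list grows with the depth of its libraries, so these shares are compared within a list.

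At promoters, STAT6 peaks of IL-4-treated macrophages lay in 46.8% of the 79 regions with higher Pol II, in 21.6% of the 74 with lower Pol II and in 11.2% of all promoter regions. Basal STAT6 peaks lay in 16.5%, 54.1% and 21.03%. Of the named promoters, those of Tmem26, Slc7a2, Mcf2l, Mgl2 and Gm6116 held a STAT6 peak at 24 h, while the Msx3 and Cish promoters and the 0610040F04Rik region held none. Lst1, C5ar1, Cx3cr1 and Ctla2b held a STAT6 peak in basal macrophages only. The Tmem26 intron region held peaks of STAT6, PPARg and PU.1 at 24 h and none of the 5 factors in basal macrophages.

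**Figure D5:**
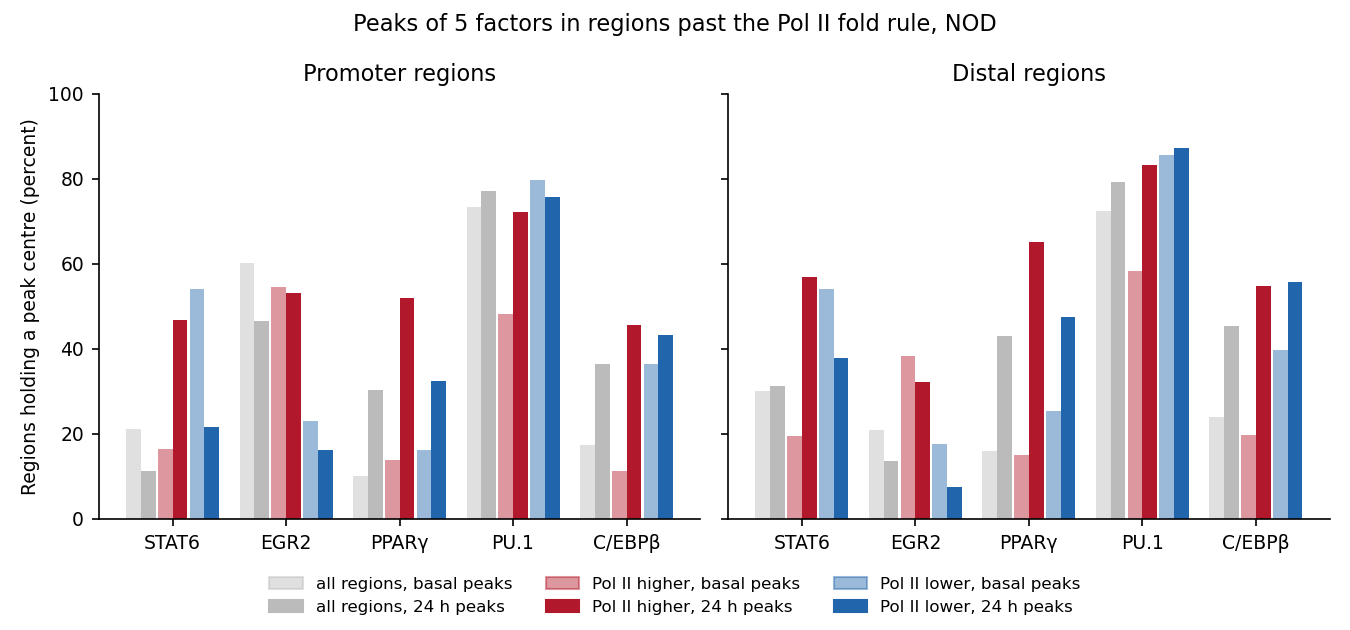
Share of promoter (left) and distal regions (right), in percent on the y axis, that hold the centre of a peak of STAT6, EGR2, PPARg, PU.1 or C/EBPb, for all regions (grey) and for those with higher (red) or lower Pol II (blue). Pale bars are peaks of basal and darker bars peaks of IL-4-treated macrophages, and for STAT6 in distal regions the 24 h bar is higher than the basal one in red (56.8% and 19.6%) and lower in blue (37.9% and 54.0%).

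Motif letters in the 300 central bases of the regions gave shares of the same kind. TTC and GAA separated by 4 bases were present in 24.6% of distal regions with higher Pol II, in 5.86% of those with lower Pol II and in 8.67% of all distal regions, and in promoters in 13.9%, 6.76% and 4.90%. With 3 bases between them, TTCNNNGAA was present in 13.4%, 7.03% and 9.69% of distal regions. GTGGGNG matched in 36.3%, 22.4% and 26.0%, and TGANTCA in 29.6%, 22.8% and 23.03%. GAGGAAG was in 29.0% of higher, 35.0% of lower and 31.4% of all distal regions, and TTGCNNAA in 17.8%, 17.7% and 16.8%. GGGA and TCC separated by 3 bases, a spacing of NF-kB sites, were in 4.33%, 5.42% and 4.26%. Some matches can overlap each other, and the shares rest on reference bases.

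The same positions were looked up in the Pol II tables of the other 4 strains, which hold their own regions and were scaled separately, so no difference between strains was tested. A region was matched when a region of the other strain had its centre within 500 bp. Of the 8 named promoters with higher Pol II, 7 were matched in C57BL/6J (C57), 7 in BALB/cJ (BALB), 5 in PWK/PhJ (PWK) and 6 in SPRET/EiJ (SPRET), and 5, 7, 5 and 4 of them were past the fold rule without overlap in the same direction. For the named distal regions with higher Pol II, 5, 5, 8 and 6 were matched and 4, 5, 8 and 5 past the rule. The lower ones were past it less evenly, in 4 of 8, 3 of 8, 4 of 8 and 5 of 8 promoters and in 6 of 7, 3 of 6, 3 of 6 and 0 of 3 distal regions. No matched region was past the rule in the opposite direction. The share of all regions past the rule in each of these strains is not given here, so the counts stand without a background and are a description only.

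At the matched Tmem26 intron region the 4 basal libraries of C57 ranged from 0.00 to 13.7 tags and the 3 at 24 h from 43.6 to 245. At the Tlr2 intron region they ranged from 54.1 to 208 and from 12.8 to 40.0. At the Msx3 promoter the C57 libraries overlapped, with 0.54 to 46.8 tags in basal and 34.6 to 145 in IL-4-treated macrophages. A region without a match in another strain's table was not analysed there.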

How the data were processed

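Pol II, H3K27ac, H3K4me2 and H3K4me3 tags came from the NOD table, with 2 basal and 2 24 h libraries per target, and factor peaks from lists of each condition. Per the study's methods and the submitters' processing notes, the authors aligned reads with Bowtie2, shifted them from the strain genome to mm10 and used HOMER. The deposited signal values are tags in 1000 bp around each ATAC-seq peak, scaled by the authors to 10000000 tags per library, with replicates apart. The deposited peak score of the factor lists was not used, only positions, and lists stand for IDR-reproducible peaks of a condition. Multiplied by the library total over 10000000, 100% of Pol II values gave whole reads within 0.1.

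Each target was tested with limma 3.58.1 (lmFit, eBayes with trend, R 4.3.3) on log2(tags + 1) over all 68932 regions without a filter. On the recovered reads, edgeR 4.0.16 and DESeq2 1.42.0 were alternatives, and their calls are printed because limma made none. The share of tags in regions was compared by an exact permutation test. The fits were also run on simulated independent libraries without an effect of the replicate number, which checks the code and not the calls given here. Promoter regions are promoter-TSS and distal regions intron or intergenic in the deposited annotation. Gene starts came from GENCODE vM21 (protein-coding, mm10), where 85.4% of promoter and 2.22% of intergenic regions lay within 1000 bp of one. Sequences came from RefSeq GRCm38.p6.

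Regions past the fold rule without overlap of libraries were ordered by limma p in each of 4 sets, 1 region was kept per nearest gene, and the first 8 were named. Of 19 gene lists, all genes with a region within 1000 bp of their start were counted and those past the rule named. Further genes outside these rules (among them Ccl17, Ccl22, Il4ra, Stat6, Egr2, Pparg, Ccl2, Ccl7, Irf7, Oas2, Abcg1, Lyz2 and Ccnb1), the examples of other edgeR calls (Socs1, Cish, Pim1, Pim3, Flt1 and Atp6v0d2) and the runs of regions were named after their values were seen. Members, lists and tests were chosen with earlier results of these data known. Alternatives were another pseudocount, filter, fold threshold, scaling, replicate block and leaving out each library. The deposited time course and EGR2 knockout tables and the factor peaks of other strains were not used here. Tables and plots used Python 3.11.15, pandas 2.3.3, numpy 2.4.6, scipy 1.17.1 and matplotlib 3.10.9.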

Additional observations from a re-analysis of the deposited data

How the results depend on the processing

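The number of regions called by limma depended on the settings, and the cause was not tested. From 0, the higher regions became 10 with a pseudocount of 5, 17 with median-ratio scaling, 61 with edgeR and TMM, 38 with edgeR and library totals and 332 with DESeq2, and the lower ones 2 with edgeR and TMM and 67 with DESeq2. Each of the 4 fits without a library gave 0 in both directions. With the replicate number as a block, limma called 2555 higher and 1926 lower regions, among them all 32 named ones. Deviations of same-numbered libraries correlated at 0.56 over 43906 regions. Same-numbered libraries also differed less between groups (chi-square per degree of freedom 5.97 and 6.51) than libraries within a group (6.99 and 7.86). Pearson correlation of log2 tags gave that order for the replicate 1 libraries (0.9044) but not for the replicate 2 libraries (0.8826). The latter lay below both pairs within a group. With 2 pairs, this mixed order and no shared batch or animal in the labels, the values are at most a weak hint of pairing by number. The calls without the block, which the text uses for rise and fall, leave such a pairing out.

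By the fold rule, a threshold of 2 gave 158 higher and 171 lower promoter regions, 2477 and 1878 distal regions, and 1482 and 1519 regions with H3K27ac together. A pseudocount of 5 gave 40 lower promoter regions, 745 higher and 245 lower distal regions, and 543 and 223 together with H3K27ac. Without a filter 2324 distal regions were higher, and with median-ratio scaling 328 were lower together with H3K27ac. Leaving out each Pol II library gave 113 to 207 higher and 93 to 353 lower promoter regions, 1713 to 2328 higher and 861 to 2205 lower distal regions, and 850 to 925 higher and 429 to 1042 lower regions together with H3K27ac. H3K27ac at the named regions passed limma at 6 regions and at 0 with median-ratio scaling. The log2 folds of the 32 named regions kept their sign in all settings. Their choice without overlap of the libraries largely fixed this in advance, so it is no check of the result. The adjusted p passed the threshold at 5 of these regions with a pseudocount of 5, 10 with median-ratio scaling, 16 with edgeR and 31 with DESeq2. With 2 libraries per group, about 12 to 14 reads behind 8 tags limit what can be told apart at low regions.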

Other observations

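How often replicate 1 lay above replicate 2 varied between gene lists. At promoters of cell cycle genes replicate 1 lay above replicate 2 at 18 of 19 regions in basal and at 18 of 19 in IL-4-treated macrophages, against 74.4% and 69.7% of all promoter regions. At the macrophage markers the order was mostly the other way, with replicate 1 above at 2 of 11 regions in basal and 3 of 11 in IL-4-treated macrophages. In other lists the order turned between the groups, with replicate 1 above at 9 of 11 housekeeping genes in basal and 5 of 11 in IL-4-treated macrophages, and at 5 and 9 of 14 genes of alternative activation. At Ccnb1, a mitotic cyclin, the replicate 1 libraries held 130 (basal) and 91.6 (24 h) tags and the replicate 2 libraries 34.2 and 35.8. The Ccl2 and Ccl7 promoters showed the same order with wider gaps. The numbers give no order among replicates of a group, and their relation to Pol II at these genes was not tested.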
